A study of Mus musculus with 18 samples.

Results

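Gene expression was compared between unstimulated macrophages of 2 genotypes, wild-type C57BL/6J (B6) and a knock-in line whose RIPK1 protein carries the T169A substitution, alanine in place of a threonine (called T169A). The comparison rests on 6 of the 18 libraries of the study, 3 per genotype, and on autosomal genes only, of which 12411 had enough counts to be tested. The cells were bone marrow-derived macrophages (BMDMs), grown from marrow with supernatant of L929 fibroblasts. The other 12 libraries came from the same 2 genotypes after 2 hours of lipopolysaccharide (LPS) or of LPS/5z7, 3 libraries in each group. The labels letter the B6 samples A to C and the T169A samples D to F without saying what a letter stands for, and they give no age, sex or number of mice, so p-values measure the spread between these libraries only. Libraries are named here by genotype and the running number of their column.

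RIPK1 is a kinase and scaffold that joins the complexes formed at the TNF receptor and, through adaptor proteins, at Toll-like receptors. Phosphorylation of RIPK1 by other kinases holds its own kinase activity in check. When that check fails, RIPK1 can pass the signal to caspase-8 and apoptosis, or to RIPK3 and MLKL and necroptosis. Macrophages have long served to study both routes, since they combine Toll-like receptor signalling with strong TNF production.

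Depth in the 6 unstimulated libraries ran from 14.6 to 27.4 M counts, and levels are given as CPM, read counts scaled to the size of the library and corrected for its composition with TMM. Scaled to library size alone, without the TMM correction, a floor of 3 counts stood for 0.11 to 0.205 CPM. With that correction the floor is lower, at 0.161 CPM in B6 library 7, where it had been 0.205. Macrophage markers were high in all 6 libraries: the summed level of 8 markers, among them Csf1r, Adgre1 and Lyz2, ranged over 36120 to 45000 CPM for B6 and 35470 to 38000 CPM for T169A, with 0 of the 8 called. B6 library 7 stood apart. Its chi-square per degree of freedom against B6 libraries 1 and 4, where counting error alone gives about 1, was 81.5 and 102, against 6.25 to 11.9 for the other pairs within a genotype. The quintile of genes with the shortest transcripts was shifted by 0.34 (log2, median) in library 7 against the mean of the 6 libraries and the longest quintile by −0.39, with shifts of −0.12 to 0.16 in the other libraries. Genotype also went with sex-linked transcripts: Xist, made from the inactive X chromosome of female cells, was 348 to 917 CPM in unstimulated B6 and 0 to 1.11 CPM in unstimulated T169A. Counts of the Y-linked genes Ddx3y, Eif2s3y, Kdm5d and Uty were 0 in each unstimulated B6 library and 4908 to 5500 in sum in each T169A library. A difference by T169A and a difference by sex or by line therefore cannot be told apart for any gene below, and keeping to autosomal genes does not remove an effect of sex on them.

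Few autosomal genes differed between the genotypes before stimulation. In T169A macrophages 5 genes were higher (0.0403% of those tested) and 17 lower (0.137%), 22 in all (0.177%), at an adjusted p under 0.05 (edgeR quasi-likelihood test on all 18 libraries, Benjamini-Hochberg over 13068 genes). The higher genes were Camk2b, Slc15a2, Stab2 and the predicted genes Gm43305 and Gm15446. The lower genes were Gdf3, Mtus2, Tgfbi, Wdfy1, Cx3cr1, Plxdc2, Marco, Col18a1, Mmp14, Tarm1, Ptges, Axl, Vill, Cav1, F11r, H2-M2 and Lmo4. The 3 libraries of one genotype lay outside the range of the other 3 for each of the 22, as they did for 8.4% of all autosomal genes. Only 8 of the 22 differed by 2-fold or more, and the 22 lay on 13 chromosomes with at most 3 on any one. At an unadjusted p under 0.05 the count was 646 genes, or 5.21%.

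The size of this list depended on the fit. The 18-library fit takes its estimate of spread from all 6 groups. A fit on the 6 unstimulated libraries alone called 2 genes, Gdf3 (adjusted p = 6.98e-04, edgeR) and Mtus2 (adjusted p = 0.00294), and the other 20 had adjusted p-values of 0.0712 to 0.9996 there. DESeq2 on the 18 libraries called 14 higher and 42 lower genes, and limma voom with library weights called 66 higher and 172 lower; both lists hold all 22. Leaving out 1 unstimulated library at a time, 16 of the 22 kept the call in each of the 6 fits. Those that lost it at least once were Cav1, F11r, H2-M2, Lmo4, Gm15446 and Stab2.

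**Figure D1:**
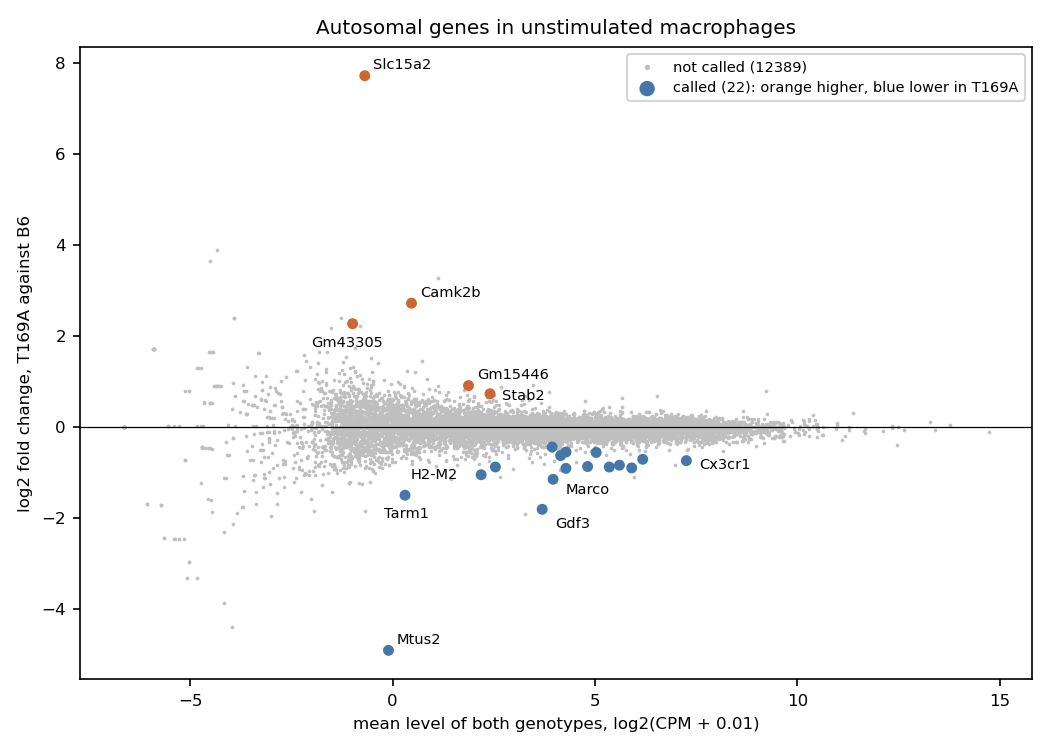
Each point is an autosomal gene in unstimulated macrophages, with its mean level over both genotypes on the x axis, log2(CPM + 0.01), and its log2 fold change of T169A against B6 on the y axis; grey points were not called. The 5 higher genes (orange) lie at low levels, up to Stab2 at 6.61 CPM in T169A. The lower genes (blue) include some at such levels, among them Mtus2 and Tarm1, and extend to Cx3cr1 at 191 CPM in B6.

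Among secreted and matrix proteins, Gdf3 gave the firmest difference. Gdf3 encodes a ligand of the TGF-beta superfamily and stood at 21.2, 19.2 and 20.0 CPM in B6 libraries 1, 4 and 7, and at 5.61, 5.85 and 5.83 CPM in T169A libraries 10, 13 and 16. The groups were far apart and the libraries within each close together, a 3.49-fold lower level in T169A (log2 fold change −1.80 ± 0.11 SE, adjusted p = 2.39e-08, edgeR). Because these are bulk samples, fewer cells that express a gene and less RNA per cell cannot be told apart. Tgfbi, a secreted matrix protein that TGF-beta induces in many cells, was at 90.5, 91.9 and 86.8 CPM in B6 and 57.6, 53.2 and 54.6 CPM in T169A. All 3 T169A libraries lay well under all 3 B6 libraries, with library 7 close to the other B6 libraries (−0.70 ± 0.07, adjusted p = 2.74e-05, edgeR).

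The cell surface and matrix genes Mmp14, Col18a1 and Plxdc2 were lower too. Mmp14, a membrane-bound protease that cuts collagen and activates other matrix proteases, was at 61.8, 65.1 and 59.7 CPM in B6 and 43.4, 31.1 and 30.7 CPM in T169A (−0.83 ± 0.11, adjusted p = 8.81e-04, edgeR). Library 10 was the highest of the T169A group for this gene and still under B6. Col18a1, the chain of collagen XVIII from which endostatin is cut, was at 22.3, 23.3 and 18.9 CPM against 14.4, 13.7 and 13.8 CPM (−0.62 ± 0.08). Plxdc2, a plexin-domain membrane protein, was at 25.9, 25.7 and 24.3 CPM against 11.8, 15.1 and 13.8 CPM (−0.90 ± 0.12). Neither pair of groups overlapped. Across the list of matrix and adhesion genes 3 of 36 tested were lower and 0 higher, with a median log2 fold change of 0.01 against 0.00 over all autosomal genes. In the TGF-beta superfamily list the lower genes were Gdf3 and Tgfbi, 2 of 34, and the receptors Tgfbr1 (−0.12 ± 0.20) and Tgfbr2 (0.21 ± 0.09) and the ligand Tgfb1 (−0.07 ± 0.10) were not called.

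Surface receptors made up a second set. Cx3cr1, the receptor for the membrane-bound chemokine fractalkine, gave 200.7, 198 and 174 CPM in the B6 libraries, and in those of T169A 108, 119 and 119 CPM. Its lowest B6 library, number 7, was well above the highest T169A library (−0.73 ± 0.08, adjusted p = 1.43e-04, edgeR). It was the 1 gene called among 27 chemokines and chemokine receptors, where 4 members were lower and 1 higher at an unadjusted p under 0.05 and the median was −0.19. Ccr2, the receptor that brings monocytes out of the marrow, was at a mean of 32.4 CPM in B6 and 28.2 CPM in T169A (−0.20 ± 0.14, not called).

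Receptors for particles and dying cells moved in both directions. Marco, a scavenger receptor that binds bacteria and particles, was at 16.5, 20.4 and 27.5 CPM in B6 and 11.3, 8.32 and 9.55 CPM in T169A (−1.14 ± 0.15, adjusted p = 6.91e-04, edgeR). The B6 libraries were spread widely, with library 7 the highest. Axl, a receptor kinase that recognises apoptotic cells through the bridging protein Gas6, was at 84.3, 89.4 and 60.1 CPM in B6 and 46.0, 42.7 and 37.5 CPM in T169A (−0.89 ± 0.13, adjusted p = 0.00280, edgeR). Here library 7 was the lowest of B6, nearest to T169A. Its relative Mertk (0.17 ± 0.11) and its ligand Gas6 (0.12 ± 0.09) were not called. Stab2, a scavenger receptor for hyaluronan, went the other way, at 3.76, 3.69 and 4.46 CPM in B6 and 6.88, 6.24 and 6.69 CPM in T169A (0.74 ± 0.15, adjusted p = 0.0478, edgeR). That call sat at the threshold and was kept in 1 of the 6 fits without 1 library. The scavenger and efferocytosis list as a whole had 2 lower and 1 higher gene among 32, with a median of 0.06; Stab1 (0.28 ± 0.10), Mrc1 (0.36 ± 0.12) and Cd36 (0.29 ± 0.12) had unadjusted p-values under 0.05 and non-overlapping groups without being called.

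Receptors of immune and adhesive contacts, Tarm1, H2-M2 and F11r, were lower as well. Tarm1, an activating receptor of myeloid cells, was low in all libraries, at 1.72, 1.98 and 1.72 CPM in B6 and 0.742, 0.471 and 0.734 CPM in T169A, from 141 counts in B6 and 48 in T169A. The B6 to T169A ratio of these counts was 2.84, with an interval for counting error alone of 2.03 to 4.02. H2-M2, a non-classical MHC class I gene, was at 5.52, 7.00 and 5.81 CPM against 3.30, 3.06 and 2.57 CPM (−1.04 ± 0.19), and F11r, the junctional adhesion molecule A, at 17.4, 18.6 and 16.8 CPM against 12.1, 13.5 and 13.7 CPM (−0.43 ± 0.08). The groups did not overlap for either gene, but both calls were lost in some fits without 1 library, with adjusted p-values up to 0.227 and 0.126 (edgeR).

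**Figure D2:**
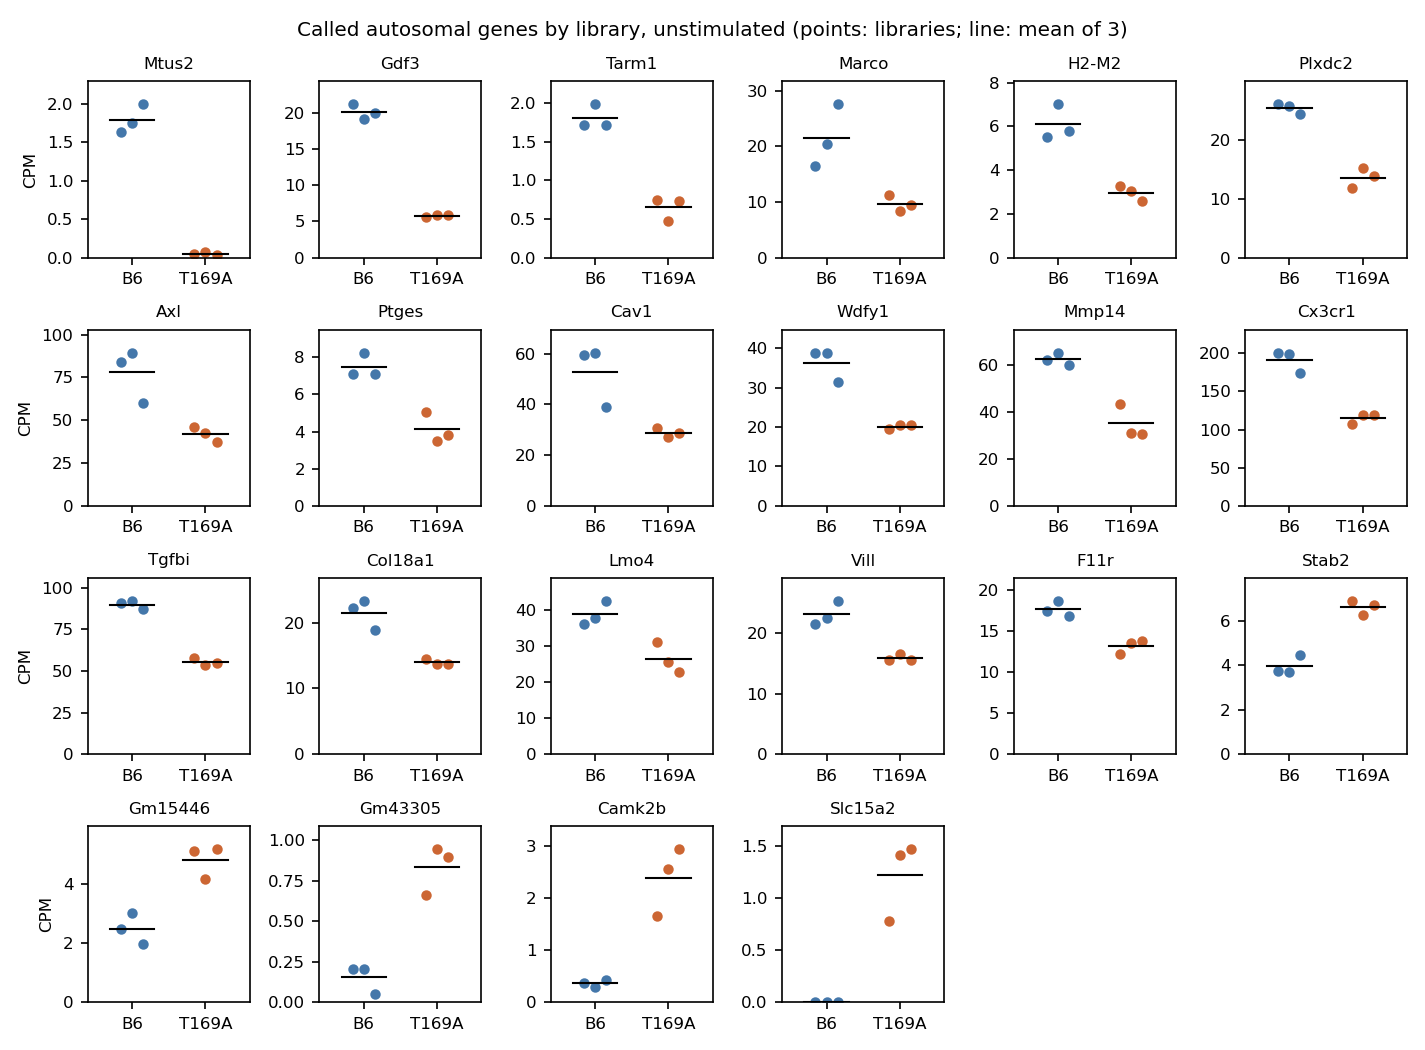
Each panel is 1 called gene, with CPM from 0 on the y axis and the 3 libraries of each genotype as points in the order 1, 4, 7 (B6, blue) and 10, 13, 16 (T169A, orange); black lines are means of 3. The 17 lower genes come first and the groups are separate in every panel, by a wide margin for Gdf3 and Mtus2 and a narrow one for Lmo4.

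The remaining lower genes act inside the cell. Mtus2, which encodes a microtubule-associated protein, was at 1.63, 1.74 and 1.99 CPM in B6 and 0.0412, 0.0785 and 0.0408 CPM in T169A. The T169A libraries held 1, 2 and 1 counts, against 136 in B6 over the group, so that Mtus2 was almost undetected there. The B6 to T169A ratio was 32.8, with an interval for counting error of 12.5 to 122. Wdfy1, an adaptor of Toll-like receptor signalling, was at 38.7, 38.8 and 31.4 CPM in B6 and 19.4, 20.4 and 20.4 CPM in T169A (−0.86 ± 0.09, adjusted p = 9.49e-05, edgeR). The T169A libraries were nearly equal. Cav1, the coat protein of caveolae, was at 59.4, 60.4 and 38.8 CPM against 30.7, 27.2 and 28.7 CPM (−0.87 ± 0.14), with library 7 again the B6 library nearest to T169A. Ptges, which makes prostaglandin E, was at 7.11, 8.24 and 7.10 CPM against 5.07, 3.495 and 3.79 CPM (−0.87 ± 0.12). Vill, a villin-like actin-binding protein (−0.54 ± 0.08), and Lmo4, a LIM-domain transcription cofactor (−0.55 ± 0.11), differed least among these, and Lmo4 kept its call in 1 of the 6 fits without 1 library.

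The higher genes mostly rested on few counts. Camk2b, the beta subunit of the calcium/calmodulin-dependent kinase II and best known from neurons, was at 0.368, 0.296 and 0.430 CPM in B6 and 1.65, 2.55 and 2.94 CPM in T169A (2.73 ± 0.29, adjusted p = 5.58e-05, edgeR). This is 27 counts against 177, a ratio of 6.79 with a counting interval of 4.51 to 10.6. Camk2b was the 1 gene called among 25 calcium and calmodulin kinase genes; its paralogs Camk2d (−0.02 ± 0.12) and Camk2g (−0.02 ± 0.09) were not called. Slc15a2, a transporter of di- and tripeptides, had 0 counts in all 3 B6 libraries and 19, 36 and 36 counts in T169A libraries 10, 13 and 16. Set against a floor of 3 counts over the B6 group, its level was 31.4-fold higher in T169A, a ratio that depends on the floor. The exact 95% counting interval of the ratio starts lower, at 25.0. Gm43305, a non-coding transcript, had 13 counts in B6 and 62 in T169A (ratio 4.94, counting interval 2.69 to 9.80). Gm15446 was at 2.49, 3.01 and 1.99 CPM against 5.11, 4.16 and 5.18 CPM, and its call was kept in 1 of the 6 fits without 1 library. How reads that match several genes, or both strands, were counted is not given in the sources used here, so values of these predicted genes are uncertain.

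Promoter windows were read for the called genes; 19 of the 22 had an entry in the RefSeq promoter table (GRCm38.p6). The motifs searched on both strands, over windows of 300 bases, were AP-1 (TGANTCA), PU.1 (GAGGAAGT), an NF-kB motif (GGNNTTTCC) and the E-box (CACGTG). They occurred in 7.81%, 3.2%, 5.82% and 7.15% of all 32851 windows, and in 1, 0, 3 and 0 of the 19 genes. A gene counts if any of its windows holds the motif, so the shares of windows and the counts of genes are unlike units. The AP-1 match was in F11r and the NF-kB matches in Gm43305, H2-M2 and Marco. The 250 bases before the start are shown for a higher gene, Camk2b, for 3 lower genes, Mtus2, Tgfbi and Cx3cr1, which hold none of the motifs, and for Marco, added because its window holds one (capitals mark the NF-kB match). Mtus2 has 2 starts in the table and the first is shown.
Camk2b, chr11:6065749-6065998, minus strand: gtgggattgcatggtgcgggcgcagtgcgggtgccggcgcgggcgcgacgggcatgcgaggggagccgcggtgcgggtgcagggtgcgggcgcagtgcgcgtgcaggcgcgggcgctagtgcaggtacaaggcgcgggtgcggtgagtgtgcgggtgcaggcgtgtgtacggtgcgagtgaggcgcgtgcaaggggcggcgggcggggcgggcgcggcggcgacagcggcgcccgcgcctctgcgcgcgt
Mtus2, chr5:147957070-147957319, plus strand: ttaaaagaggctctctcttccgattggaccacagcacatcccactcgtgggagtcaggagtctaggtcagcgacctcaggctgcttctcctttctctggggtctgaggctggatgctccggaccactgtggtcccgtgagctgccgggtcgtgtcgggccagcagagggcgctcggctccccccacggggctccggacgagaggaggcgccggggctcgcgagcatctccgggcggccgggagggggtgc
Tgfbi, chr13:56609336-56609585, plus strand: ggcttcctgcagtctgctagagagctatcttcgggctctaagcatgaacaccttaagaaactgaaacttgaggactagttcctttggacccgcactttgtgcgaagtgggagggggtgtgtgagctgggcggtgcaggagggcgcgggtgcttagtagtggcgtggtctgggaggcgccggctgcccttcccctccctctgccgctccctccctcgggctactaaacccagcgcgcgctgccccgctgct
Cx3cr1, chr9:120068297-120068546, minus strand: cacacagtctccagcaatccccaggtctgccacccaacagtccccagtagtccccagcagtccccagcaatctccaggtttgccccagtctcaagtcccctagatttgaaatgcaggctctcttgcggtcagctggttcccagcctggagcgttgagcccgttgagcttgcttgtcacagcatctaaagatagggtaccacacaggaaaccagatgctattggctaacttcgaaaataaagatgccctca
Marco, chr1:120505025-120505274, minus strand: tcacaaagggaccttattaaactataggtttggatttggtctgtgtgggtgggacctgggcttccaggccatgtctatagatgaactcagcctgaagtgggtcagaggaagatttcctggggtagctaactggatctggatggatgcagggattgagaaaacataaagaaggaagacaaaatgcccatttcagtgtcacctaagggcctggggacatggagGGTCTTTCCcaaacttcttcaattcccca

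Ripk1 itself and the genes of its complexes were not called. Ripk1 was at 95.3, 99.4 and 74.3 CPM in B6 and 98.3, 96.1 and 90.7 CPM in T169A, overlapping groups (0.08 ± 0.12, adjusted p = 1, edgeR). A substitution of 1 residue need not alter the count of a gene, so this level is no check of the labels. The executioners Ripk3 (9.46 against 9.90 CPM on average, 0.07 ± 0.13) and Mlkl (11.1 against 9.41 CPM, −0.23 ± 0.18), the sensor Zbp1 (−0.42 ± 0.22) and Casp8, the protease that restrains necroptosis (87.9 against 87.1 CPM, −0.01 ± 0.08), were not called. Of 20 genes of RIPK1 complexes and necroptosis, 0 were called by edgeR, 1 was lower at an unadjusted p under 0.05 (Birc3, an inhibitor of apoptosis, −0.30 ± 0.14), DESeq2 called 0 and voom called 2, both lower. The median was −0.05. Of 19 genes of the TAK1, IKK and MAP kinase cascade, which acts beside RIPK1 at the TNF receptor, 0 were called by edgeR and DESeq2 and 1 lower by voom; 1 was lower at an unadjusted p under 0.05, and Map3k7, which encodes TAK1, had 0.04 ± 0.12. Within 2 Mb of Ripk1 on chromosome 13, 23 genes were tested, and 0 were called or reached an unadjusted p under 0.05 (edgeR), with a median of 0.04. Nnt, which is deleted in part in the C57BL/6J substrain, had 3 to 21 counts in each of the 6 unstimulated libraries.

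Targets of NF-kB leaned lower without any call in edgeR. Of 20 subunits and targets 18 had a log2 fold change below 0, the median was −0.24, and 6 were lower at an unadjusted p under 0.05. Sod2, the mitochondrial superoxide dismutase, was at 126, 142 and 133 CPM in B6 and 115, 85.7 and 85.5 CPM in T169A (−0.49 ± 0.11, adjusted p = 0.0855, edgeR). Nfkbia, the inhibitor that NF-kB induces to end its own signal, was at 252, 305 and 245 CPM in B6 and 277, 180 and 174 CPM in T169A (−0.35 ± 0.15). For both genes T169A library 10 lay near B6 and libraries 13 and 16 lay lower. Tnf had the same arrangement, at 103, 135 and 80.9 CPM against 118, 62.9 and 68.7 CPM (−0.36 ± 0.19), as had Il1b, at 34.4, 46.9 and 31.1 CPM against 42.1, 19.2 and 20.3 CPM (−0.47 ± 0.23). The count of lower NF-kB genes differed between settings: 0 in the main analysis, 2 by DESeq2, 2 without T169A library 10, 9 by voom, and 9 without both B6 library 7 and T169A library 10. The last setting was tried after the data had been seen, and library 10 was picked on the level of these very genes, so that its count supports nothing.

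Other inflammatory lists gave no call in edgeR. Of 20 inflammatory cytokines 0 were called or reached an unadjusted p under 0.05, with 0 called by DESeq2 and by voom. Several were hardly detected in unstimulated cells. Il12a was at 0 CPM in all 6 libraries, and the means of Il6, Csf2, Csf3 and Ifnb1 lay under the floor of 3 counts. Such genes could hardly be called here. Values of the cytokine list depended on single libraries. Without T169A library 10 the median was −0.45 and Il1b was called lower. Without B6 library 7 the median was 0.00 with 0 called. Of 16 inflammasome and pyroptosis genes 2 were lower at an unadjusted p under 0.05, Mefv (−0.74 ± 0.22) and Casp4 (−0.37 ± 0.12), with 0 called by DESeq2 and 3 lower by voom. Without T169A library 10, 2 genes of the list were called lower. Interferon-stimulated genes had a median of −0.29, with 34 of 36 below 0 and 8 lower at an unadjusted p under 0.05; edgeR, DESeq2 and voom each called 0. That median was −0.18 without B6 library 7, −0.19 without T169A library 16 and −0.38 without T169A library 10. Oas1a, a sensor of double-stranded RNA, was at 48.4, 53.6 and 74.9 CPM in B6 libraries 1, 4 and 7 and at 46.1, 44.65 and 42.4 CPM in T169A libraries 10, 13 and 16 (−0.41 ± 0.14). Irf7, the regulator of the interferon response, was at 45.5, 48.9 and 81.05 CPM against 47.9, 39.2 and 40.0 CPM (−0.46 ± 0.18). Isg15, a ubiquitin-like modifier, was at 11.6, 15.3 and 33.0 CPM against 15.3, 12.7 and 11.6 CPM (−0.58 ± 0.25). B6 library 7 was the highest of the 6 for Oas1a, Irf7 and Isg15, and the groups overlapped for Irf7 and Isg15. For Ifi207 and Parp14, the list members of highest CPM, library 7 was instead the lowest of the 6. Ifi207 was at 258.5, 306.5 and 194 CPM in B6 and 284, 256 and 231 CPM in T169A (0.02 ± 0.18). Parp14 was at 239, 281 and 172 CPM against 237, 214.5 and 182 CPM (−0.13 ± 0.21). Genes of such a list may move together within a library, so the count below 0 is not a count of independent observations.

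The metabolic and state lists held 0 genes called by edgeR. Glycolysis and hypoxia genes had a median of 0.00, p53 targets of −0.05, and lipid genes of PPARG and LXR of 0.04. In cholesterol synthesis 17 of 18 genes were below 0, the median was −0.21 and 9 were lower at an unadjusted p under 0.05, with 0 called by edgeR, 1 by DESeq2 and 2 by voom. Among NRF2 redox genes 13 of 14 were below 0 (median −0.20), 3 were lower at an unadjusted p under 0.05, and 0, 0 and 3 were called by edgeR, DESeq2 and voom. Genes of alternative activation had a median of 0.29 over 13 genes, with 4 higher at an unadjusted p under 0.05 (Fn1, Mrc1, Chil3 and Vegfa) and 0 called by any of the 3 tools. That median was 0.15 without B6 library 1, 0.16 without B6 library 4 and 0.10 without T169A library 10. Proliferation genes had a median of 0.13 over 30, with 4 higher and 1 lower at an unadjusted p under 0.05, 0 called by edgeR and DESeq2 and 1 higher by voom. The 33 macrophage identity genes had a median of −0.08 and 4 lower at an unadjusted p under 0.05, with 0, 0 and 1 called. Of the 24 lists, 19 held no called gene. Several of the called genes had been placed in the lists with their values known, so the counts of lists that hold one are descriptions.

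**Figure D3:**
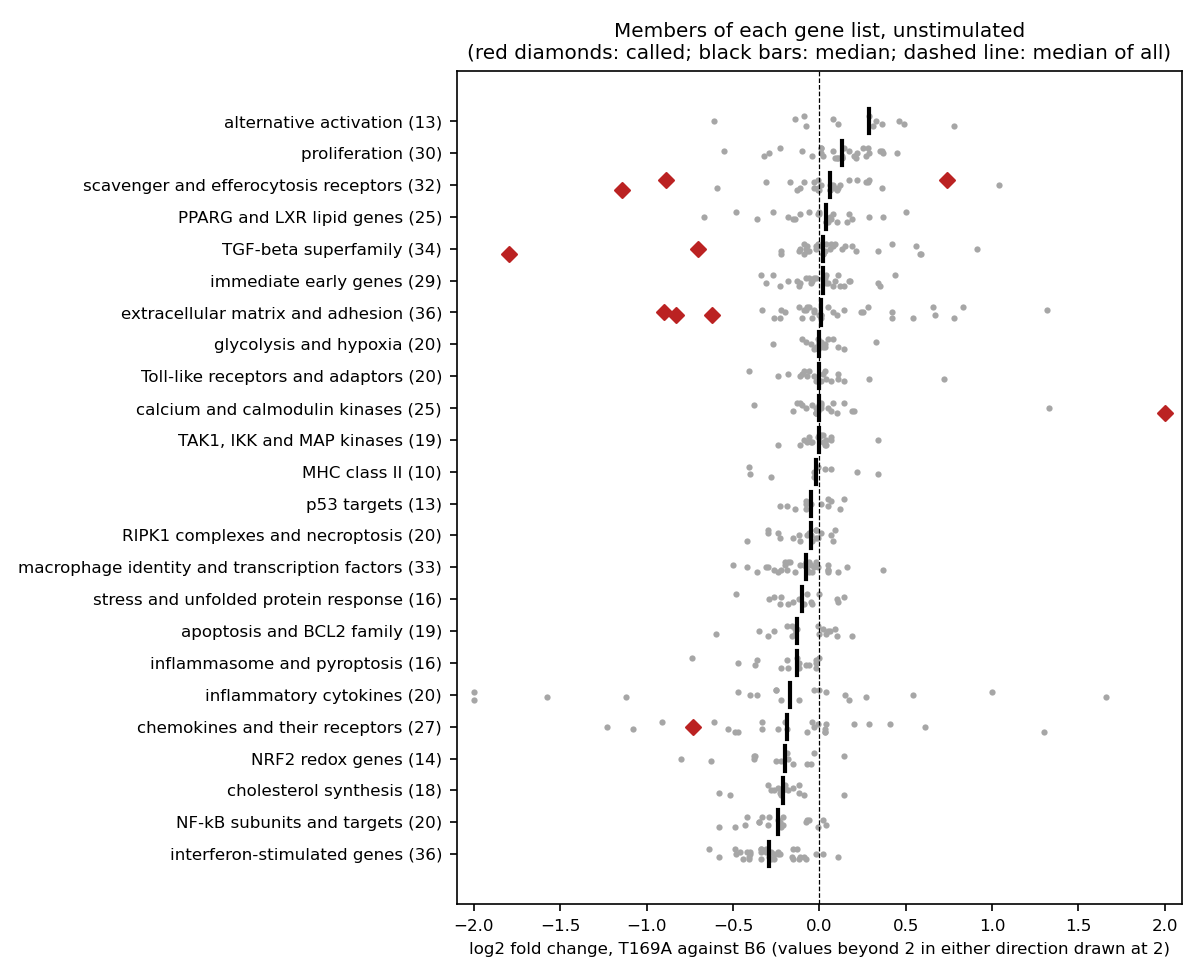
Log2 fold changes of T169A against B6 for the members of 24 gene lists (number of genes tested in brackets), ordered by median; grey points were not called, red diamonds were called, black bars are medians and the dashed line is the median of all autosomal genes. Medians run from −0.29 for interferon-stimulated genes (−0.18 without B6 library 7) to 0.29 for alternative activation (0.10 without T169A library 10), so the order of the lists changes with single libraries. The called genes sit in 5 lists.

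Markers of other cell types were read in the same libraries. Markers of granulocytes and their precursors summed to 40.5 to 47.6 CPM in B6 and 48.5 to 65.8 CPM in T169A, monocyte markers to 254 to 283 CPM against 269 to 319.5 CPM, and fibroblast markers to 8.66 to 12.4 CPM against 11.7 to 20.9 CPM. Osteoclast markers summed to 87.8 to 93.9 CPM in B6 and 99.4 to 118 CPM in T169A, and megakaryocyte markers to 1.595 to 1.96 CPM against 2.08 to 2.97 CPM. The T169A range lay above the B6 range for granulocyte, osteoclast and megakaryocyte markers and overlapped it for monocyte and fibroblast markers. Most of the osteoclast sum was Atp6v0d2, at 74.9, 75.5 and 65.5 CPM in B6 and 101, 84.4 and 85.4 CPM in T169A (log2 fold change 0.33). Over the 6 osteoclast markers tested the median was −0.20. Dcstamp (−0.69), Ocstamp (−0.44) and Acp5 (−0.39) were below 0, and Ctsk (−0.01) and Mmp9 (0.01) near 0. T cell markers summed to 4.248 to 5.38 CPM in B6 and 2.98 to 4.246 CPM in T169A, the T169A range lying just below; nearly all of it was Cd4, and Cd3e had 0 counts in all 6 libraries. B cell markers summed to 21.6 to 30.1 CPM against 23.05 to 25.9 CPM with overlap, mostly from Ighm (17.6 to 25.0 CPM over the 6 libraries) and Cd79b, while Pax5 had 0 counts throughout. Of the other defining markers, 6 of 7 erythroid and 4 of 7 mast cell markers were at 0 counts in all 6. Of the markers in these lists, 0 were called. The part of such cells in the 22 differences was not tested.

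The genotype difference was also followed into the stimulated cells, which are separate libraries. After LPS all 22 genes kept the sign they had without stimulation, as 48.3% of all autosomal genes did; 15 were called (0.177% of autosomal genes were called there) and 20 had non-overlapping groups (10.4% of autosomal genes). With LPS/5z7 all 22 kept the sign (46.2% of autosomal genes), 10 were called (0.113%) and 21 had non-overlapping groups (23.2%). The same letters label the 3 conditions of a genotype, so these libraries may come from the same marrow and are not independent of the unstimulated ones. Gdf3, Mtus2, Tgfbi, Camk2b, Wdfy1, Cx3cr1, Plxdc2, Marco, Col18a1 and Axl were called in all 3 conditions. For these 10 no difference between conditions was called. After LPS the means of Cx3cr1 were 59.7 (B6) and 34.2 CPM (T169A), a log2 fold change of −0.81 ± 0.09, and Col18a1 stood at 61.9 and 42.7 CPM (−0.54 ± 0.08).

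Genotype differences in the LPS libraries are given beside the unstimulated ones for Tarm1, Ptges, Mmp14 and Tgfbi. These genes were called for their unstimulated difference, which enters any difference between conditions, so the values are a description with no test. After LPS the mean of Tarm1 was 55.5 CPM for B6 and 42.6 CPM for T169A (−0.38 ± 0.11), where the log2 fold change had been −1.49 ± 0.21 before. Ptges was at 144 and 132 CPM after LPS, with overlapping groups (−0.12 ± 0.10). For Mmp14 the log2 fold change was −0.38 ± 0.11 after LPS and −0.83 ± 0.11 before. For Tgfbi it was −0.46 ± 0.07 after LPS and −0.70 ± 0.07 before. Over all autosomal genes 0 differences between conditions were called in either comparison (edgeR; lowest adjusted p = 0.916 with LPS and 0.830 with LPS/5z7), with 398 and 428 genes (3.21% and 3.45%) at an unadjusted p under 0.05. DESeq2 called 0 and 1, and voom 60 and 0.

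**Figure D4:**
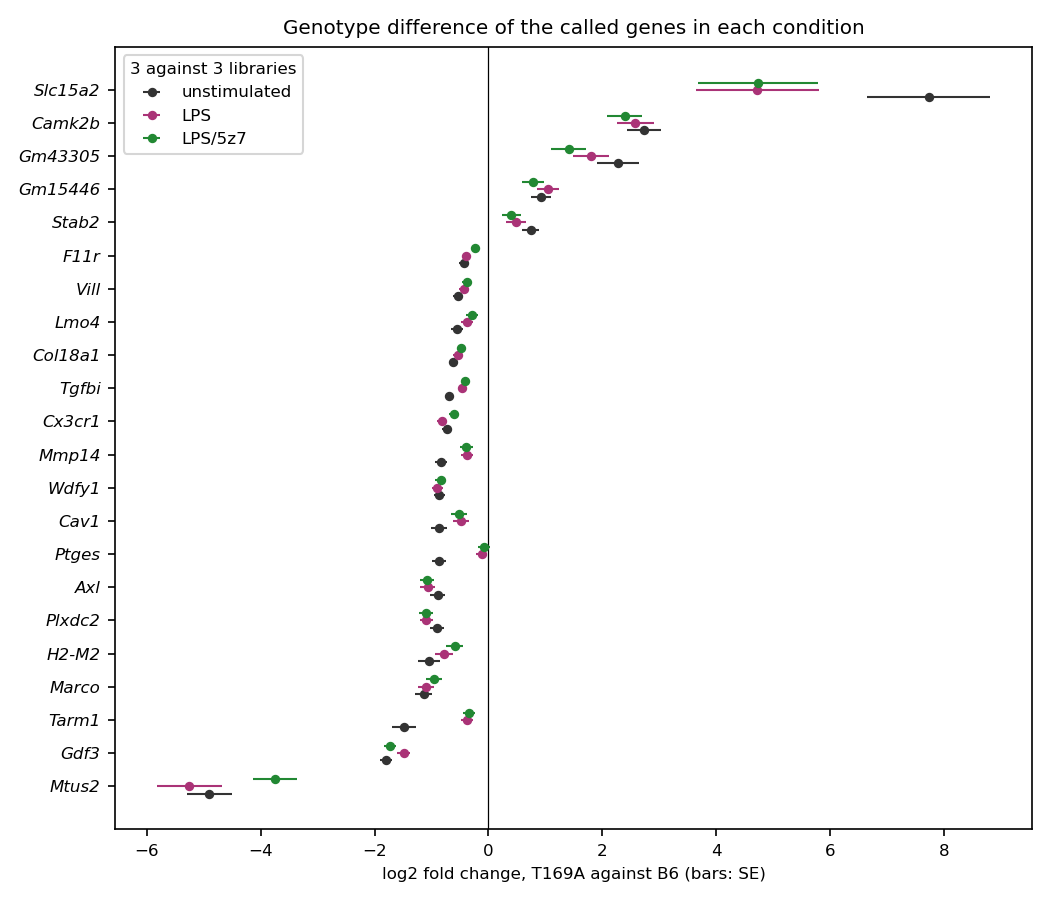
Log2 fold change of T169A against B6 with its SE for the 22 called genes, without stimulation (black), after LPS (purple) and after LPS/5z7 (green), 3 against 3 libraries each. All points keep their side of 0, and Ptges and Tarm1 lie nearer to 0 in the stimulated cells; the value of Slc15a2 without stimulation comes from a group with 0 counts and is not a measured size.

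The threshold fell within a run of similar genes. Just inside it were Lmo4, Gm15446 and Stab2, with adjusted p-values of 0.0435 to 0.0478 (edgeR), and just outside were Colec12 (0.0549), a collectin scavenger receptor with means of 70.0 (B6) and 46.7 CPM (T169A), Tmem132a (0.0554) and Fgr (0.0715), a Src-family kinase at 20.3 and 13.8 CPM. The pseudogene Atp6v0c-ps2, not called (adjusted p = 0.0769, edgeR), had 32 counts in B6 and 294 in T169A, a ratio of 9.52 with a counting interval of 6.60 to 14.2, and it may share reads with its parent gene. Saa3, an acute-phase gene, was at 6.74, 8.07 and 31.1 CPM in B6 and 4.91, 3.495 and 3.59 CPM in T169A (adjusted p = 0.108, edgeR). The groups did not overlap, but the size of its fold change depends on library 7. These genes were chosen for their place beside the threshold after values were known.

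**Figure D5:**
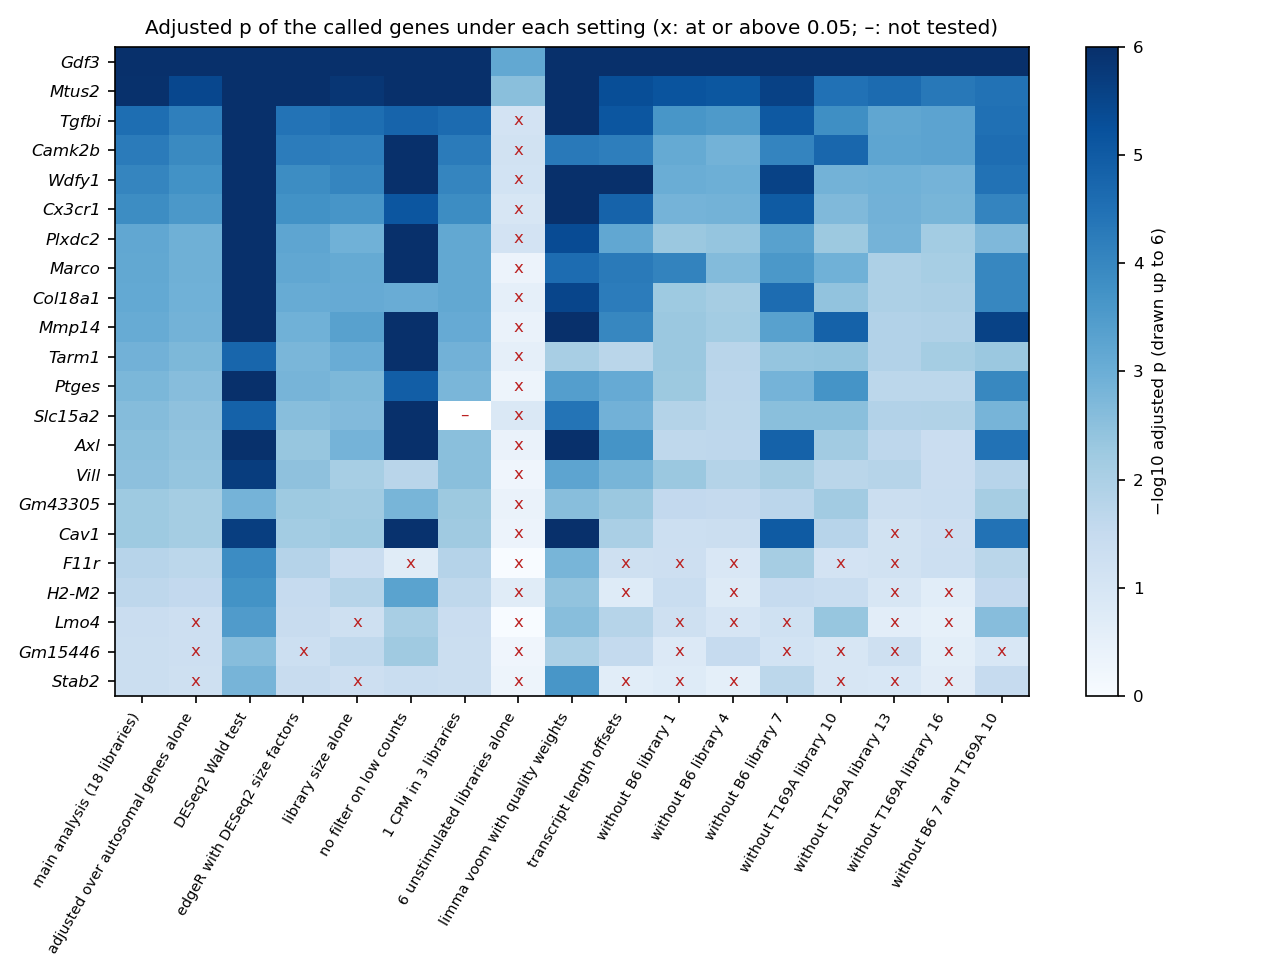
Adjusted p of the 22 called genes (rows) under each setting (columns) as −log10, darker blue for smaller p; a red x marks 0.05 or more and a dash a gene not tested. The column for the 6 unstimulated libraries alone is crossed for 20 genes, and the lowest rows are crossed in several fits without 1 library.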

How the data were processed

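Total RNA of the 18 cultures was sequenced from directional libraries, per the labels' protocols. The values the authors deposited are unnormalised read counts for each gene. Per the submitters' processing notes, these involved featureCounts, STAR and Trim Galore and the build GRCm39; versions, strand setting and treatment of multi-mapping reads are not given in the sources used here. Symbols and chromosomes came from GENCODE on GRCm38 (91.4% of IDs, 99.8% of counts). The coordinates of the promoter windows and the window around Ripk1 are also on GRCm38, unlike the build of the counts. Column names give a group and number, so columns were tied to groups.

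Counts were filtered with filterByExpr (13068 genes; 12411 autosomal), scaled with TMM and fitted with edgeR 4.0.16 (R 4.3.3; robust quasi-likelihood, 6 group means over 18 libraries). Benjamini-Hochberg adjustment ran over all genes tested, with a threshold of 0.05. Each SE was derived from the fold change and its F statistic. Intervals of count ratios are exact and, like the floor of 3 counts, cover counting error only. On simulated data for this comparison (13068 genes, 200 changed), 45.3%, 74.6% and 90.4% of genes changed 1.5-, 2- and 4-fold were recovered and 4.33% of calls were false. More genes were changed there than were called here, which loosens the adjusted threshold, and libraries were drawn independently. Recovery in the data may therefore be lower.

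Alternatives were DESeq2 1.42.0, its size factors, library size alone, other filters, the 6 unstimulated libraries alone, limma 3.58.1 voom with quality weights, each library left out, and 2 settings added after the data were seen. The comparison, gene lists and promoters were chosen with earlier results of these data known. Named genes are called genes of at least 5 CPM in one genotype with groups apart (at most 15 in each direction), the 3 called members with the smallest p and the 2 members of highest CPM not called in each list, a fixed set (Ripk1, Ripk3, Mlkl, Zbp1, Casp8, Tnf, Il1b, Nnt and 10 genes known from those results), genes called with 6 libraries too, and called genes near Ripk1; other genes named were chosen after their values were seen. Some items are not reported here.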

Additional observations from a re-analysis of the deposited data

Results flagged for a closer look

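Sex-linked transcripts lie outside the autosomal comparison and separated the genotypes completely. Xist averaged 697 CPM in unstimulated B6 and 0.384 CPM in T169A. In unstimulated T169A the Y-linked genes averaged 83.1 CPM for Ddx3y, 56.3 CPM for Eif2s3y, 34.6 CPM for Kdm5d and 34.5 CPM for Uty, with 0 counts of each in unstimulated B6. The stimulated libraries had the same split, with 1 to 3 Y-linked counts in each stimulated B6 library and 0 to 26 Xist counts in each stimulated T169A library. T169A and sex cannot be told apart in these libraries.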

How the results depend on the processing

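No paired analysis was possible because the columns carry no letter and the genotypes share none. Differences between conditions were therefore fitted without a block for libraries that may share a marrow. The 5 higher and 17 lower autosomal genes were 3 higher with adjustment over autosomal genes alone, 9 higher without a filter on low counts, 14 higher and 42 lower with DESeq2, 66 higher and 172 lower with voom, and 0 higher and 2 lower with the 6 unstimulated libraries alone. Fits without 1 unstimulated library gave 3 to 7 higher and 13 to 35 lower genes; lower genes were 30 without B6 library 7 and 35 without T169A library 10, and the cause was not tested. Offsets for transcript length, added after B6 library 7 was seen to deviate with length, gave 7 higher and 25 lower genes, 19 of them among the 22. Leaving out both B6 library 7 and T169A library 10 gave 14 higher and 127 lower genes, 21 of the 22 included, and 25 and 24 differences between conditions (LPS, LPS/5z7). Both libraries were chosen after the data were seen, library 10 for its inflammatory genes, so these counts are no support for a larger list. Differences between conditions, 0 in the main analysis, were 60 for LPS with voom and 1 for LPS/5z7 with DESeq2. Of 1230 values of named genes under alternatives, 0 called values changed sign, 55 lost and 11 gained a call. A further 45 were classed as moved without one of these changes, and 1119 as the same. Depth (14.6 M counts in the shallowest library) and 3 libraries a group limit what can be called. On simulated data, which held no deviating library and more changed genes (200) than were called here, 45.3% of genes changed 1.5-fold were recovered.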

Other observations

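Genes that have a copy on the Y chromosome and are known to be expressed from both X chromosomes in female mouse cells were read beside the sex-linked transcripts. Eif2s3x was at 27.0, 25.9 and 17.4 CPM in B6 and 17.1, 14.96 and 13.8 CPM in T169A, with groups apart (−0.62 ± 0.14, adjusted p = 0.0985, edgeR). Kdm6a was at 77.6, 80.0 and 39.5 CPM against 44.9, 44.8 and 42.0 CPM, and Kdm5c at 128, 143 and 83.4 CPM against 91.1, 86.3 and 84.0 CPM; B6 library 7 lay below all T169A libraries for both. Ddx3x was at 442, 477 and 267 CPM against 406, 406 and 381 CPM (0.01 ± 0.18). B6 library 7 also had the lowest Xist of the B6 group, 348 CPM against 827 and 917 CPM.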
